A study of Mus musculus with 6 samples.

Results

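The genes described here make and check secreted proteins in the endoplasmic reticulum (ER), with those that modify collagen set beside the general folding machinery. A list of 32 genes was chosen by symbol and role, and each was read by all probes that the array's annotation pairs with its symbol. Of the 32 genes, 27 matched a probe and 24 were detected well enough to be tested, out of 8605 genes tested in all. No probe was matched for Dnajb11, Sdf2l1, Ero1l, Fkbp10 and Ppib. The only probes of Canx, Ssr1 and P4ha1 were above background on 0 of 6 arrays, so these 3 genes were set aside.

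Messenger RNA was measured on 6 Illumina bead arrays of mouse embryonic stem cells. Cells of 2 independently derived lines with a doxycycline-inducible Sox17, a SoxF transcription factor of endoderm, were grown with 1 µg/mL doxycycline (Sox17_dox, n = 2 lines) or without it (Sox17_untreated, n = 2). Cells of the control line KH2, which the labels name without a Sox17 construct, formed the groups KH2_dox and KH2_untreated (n = 1 each), named by whether the drug was given. Culture lasted 5 days in serum plus LIF, with no feeder layer. Each line gave 1 array per condition, so the spread within Sox17_dox and Sox17_untreated is that between 2 lines, no culture was repeated, and KH2 had no replicate.

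Proteins that enter the secretory pathway cross the ER membrane through the Sec61 channel, are folded by chaperones of the Hsp70 and Hsp90 families and by lectin chaperones, and have their disulfide bonds set by protein disulfide isomerases. Misfolded proteins are sent back for degradation, and the unfolded protein response, with the transcription factor XBP1 among its arms, raises the chaperone genes when folding falls behind. Collagen needs further steps: its prolines and lysines are hydroxylated by the P4h and Plod enzymes, the chaperone HSP47 (Serpinh1) holds its triple helix, and COPII vesicles with SEC23 and SEC24 coats carry it out. Type IV collagen is a main product of parietal endoderm, which lays down a thick basement membrane.

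The unfolded protein response reads a promoter element, ERSE, that consists of CCAAT and CCACG with 9 bases of any kind between them. RefSeq promoters of GRCm38.p6, from 250 bases before to 50 after each start site, were available for 27 of the 32 members and were searched on both strands. The element was found in 7 of these 27 members (Hsp90b1, Hspa5, Calr, Canx, Pdia6, Dnajc3 and Creld2), all of them general chaperones or folding enzymes. Over all 27025 genes with a promoter, 0.137% had it. The sites are shown because none was found in a collagen processing member, but the lack of one does not mark off that group. The general chaperone genes Pdia3, Pdia4, P4hb and Dnajb9 had none either. Each site is written 5′ to 3′ in the direction of the element, with its fixed letters in capitals.
Hsp90b1, chr10:86705638-86705656: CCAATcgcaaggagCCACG
Hsp90b1, chr10:86705533-86705551: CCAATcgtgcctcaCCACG
Hspa5, chr2:34772025-34772043: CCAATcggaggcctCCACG
Calr, chr8:84847075-84847093: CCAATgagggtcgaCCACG
Canx, chr11:50325800-50325818: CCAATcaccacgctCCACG
Pdia6, chr12:17266491-17266509: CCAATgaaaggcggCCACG
Dnajc3, chr14:118937827-118937845: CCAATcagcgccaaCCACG
Creld2, chr15:88819520-88819538: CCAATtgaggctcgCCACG

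Counted from the start site to the middle of each element, these sites lay between position -203 (the first Hsp90b1 site) and position -56 (Hspa5). The related element ERSE-II (ATTGG and CCACG with any base between them) was found in Dnajb11 among the members and in 0.0444% of all genes with a promoter. The element UPRE (TGACGTGG), a target of XBP1, was found in both COPII coat members, Sec23a and Sec24d, and in 0.714% of all genes with a promoter. A match of letters is a description and does not show that a factor binds there. For comparison, the 250 bases before the start site are given for the general chaperone gene Hspa5 (chr2:34771840-34772089, plus strand), with the fixed letters of its ERSE in capitals, and for the collagen chaperone gene Serpinh1 (chr7:99353240-99353489, minus strand), whose window held no ERSE.
Hspa5: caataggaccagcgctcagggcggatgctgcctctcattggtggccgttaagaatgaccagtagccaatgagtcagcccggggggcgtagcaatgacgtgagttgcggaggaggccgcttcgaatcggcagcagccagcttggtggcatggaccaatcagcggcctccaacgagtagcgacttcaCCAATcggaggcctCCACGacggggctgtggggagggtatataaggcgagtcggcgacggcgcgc
Serpinh1: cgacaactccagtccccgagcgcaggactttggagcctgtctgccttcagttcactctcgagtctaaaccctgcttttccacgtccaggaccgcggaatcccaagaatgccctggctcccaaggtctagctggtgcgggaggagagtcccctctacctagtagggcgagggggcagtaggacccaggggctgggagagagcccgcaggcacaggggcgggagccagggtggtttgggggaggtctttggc

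Serpinh1, Plod1 and Plod3 read higher with doxycycline in both Sox17 lines, and by similar amounts in KH2, while the general chaperones centred near no change in the Sox17 lines and below it in KH2. The median change of the 5 tested collagen processing genes on the log2 scale (doxycycline minus untreated) was 0.42, 0.27 and 0.31 in line 1, line 2 and KH2. The median of the 12 tested general chaperones was 0.05, -0.06 and -0.27 in the same order, against -0.01, -0.00 and 0.02 over all 8605 genes. The collagen median was thus above the chaperone median by 0.36, 0.32 and 0.58 in the same order. Over the Sox17 lines together the gap was 0.39, and it was 0.10 without the untreated line 1 array and 0.19 without the induced line 2 array. The partner array was kept each time, so a difference between the lines entered these smaller gaps. No test was made on these medians, since the members were chosen with earlier results of these data known.

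No single member passed the test in any comparison. Between Sox17_dox and Sox17_untreated, limma with Benjamini-Hochberg adjustment called 0 of the 24 members and 0 of 12373 probes (0% called, smallest adjusted p = 0.955). At an unadjusted p under 0.05 there were 0 of 24 members, against 4.27% of all probes. With the line as a block, 0 members passed and 3 reached an unadjusted p under 0.05 (Serpinh1, Plod1 and Plod3), against 13.6% of probes. The block also left 0 members called in the comparisons with KH2 described further on. Values are therefore given as sizes, and a change in 1 line is set beside its bead error. The bead error is the standard error over the beads of a probe, about 40 per array, carried over to the change. It covers the reading of the array only, not the culture.

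**Figure D1:**
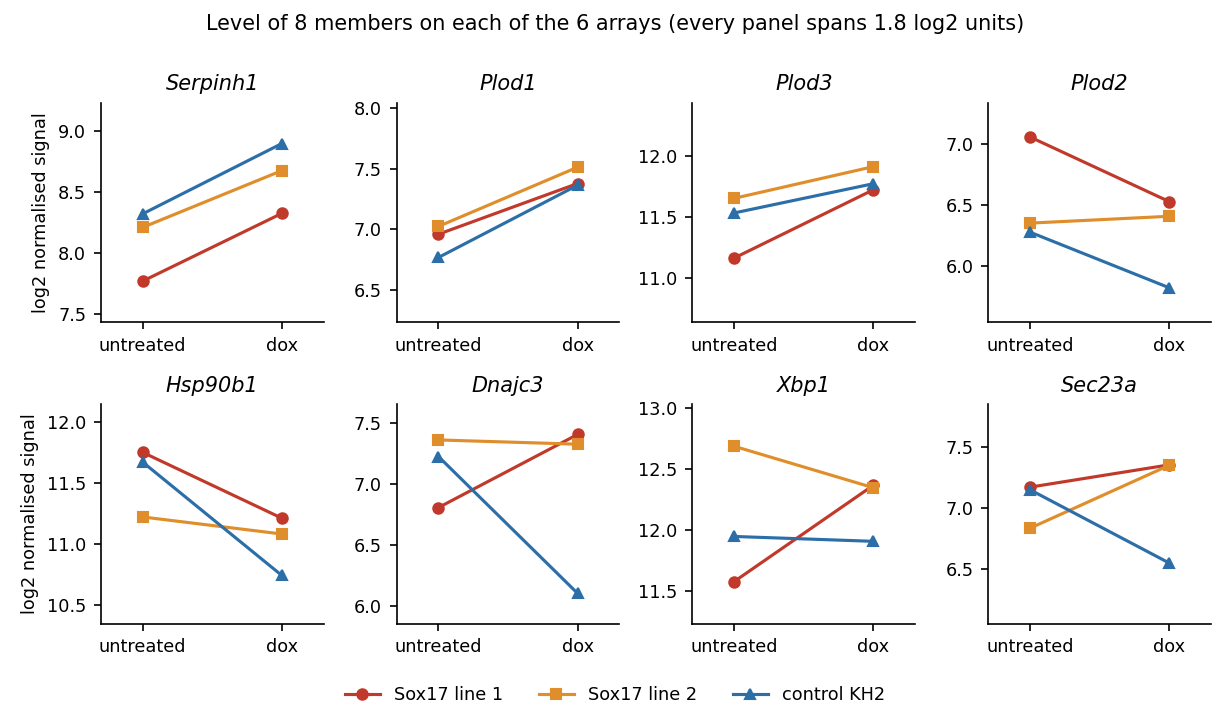
Level of 8 members on each of the 6 arrays, as log2 normalised signal (vertical axis, the same span in every panel), without and with doxycycline (horizontal axis). Each line joins the 2 arrays of 1 cell line. Serpinh1, Plod1 and Plod3 slope upwards in all 3 cell lines, Hsp90b1 slopes downwards in all 3, and Dnajc3 and Sec23a slope downwards in KH2.

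Among the collagen processing genes, Serpinh1, whose product HSP47 is a chaperone specific to collagen, read 7.77 and 8.21 in the untreated lines and 8.32 and 8.67 in the induced ones. KH2 read 8.32 without doxycycline and 8.90 with it. The 2 induced arrays were above the 2 untreated Sox17 arrays, but induced line 1 was level with untreated KH2, and KH2_dox was the highest of the 6. The changes of line 1, line 2 and KH2 were 0.56 ± 0.13, 0.47 ± 0.13 and 0.58 ± 0.14 (bead error). The mean change in the Sox17 lines was 0.51 ± 0.25 (SE, n = 2 against 2, limma adjusted p = 0.955, and 0.267 with the line as a block).

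Plod1 encodes a lysyl hydroxylase that acts on collagen helices. It read 6.96 and 7.02 in the untreated lines, 7.38 and 7.51 in the induced lines, and 6.77 and 7.36 in KH2 without and with doxycycline. All 3 arrays with doxycycline were above all 3 without it. How many of all genes had that order was not counted, and 15.9% had both induced arrays above both untreated Sox17 arrays. The changes were 0.42, 0.49 and 0.59 in line 1, line 2 and KH2, with bead errors of 0.20, 0.15 and 0.22.

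Plod3, which adds sugars to hydroxylysine as well as hydroxylating lysine, read 11.16 and 11.65 in the untreated lines and 11.72 and 11.91 in the induced ones. KH2 read 11.53 without and 11.77 with doxycycline. The groups of Sox17 arrays did not overlap, and untreated line 1 was the lowest array. The changes of line 1, line 2 and KH2 were 0.56 ± 0.08, 0.27 ± 0.07 and 0.24 ± 0.09 (bead error).

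The remaining collagen members had smaller or opposite values. P4ha2, a catalytic subunit of prolyl 4-hydroxylase, had changes under 2 bead errors in each line (0.08, 0.18 and 0.31), and its untreated line 2 array was above induced line 1. Plod2, the lysyl hydroxylase of collagen telopeptides, read 7.06 in untreated line 1 and 6.53 with doxycycline. It read 6.35 and 6.41 in line 2, and 6.28 in untreated KH2. On the KH2_dox array Plod2 was not above background. With that array set at its detection limit, it was 1.37-fold or more below untreated KH2 and 1.56-fold or more below the induced lines. These bounds leave out the bead error, and the measured KH2 change of -0.46 ± 0.25 (bead error) was within 2 bead errors. The Plod2 change was -0.53 in line 1 and 0.06 in line 2. P4hb, the disulfide isomerase that is also the second subunit of prolyl 4-hydroxylase and is counted here with the chaperones, had changes of 0.05 and 0.11 in the Sox17 lines and -0.22 in KH2.

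Serpinh1, Plod1 and Plod3 were the 3 members higher by over 2 bead errors in both Sox17 lines, against 8.45% of all tested genes. No member was lower by that much in both, where 8.24% of genes were. A change of at least 0.5 in the same direction in both Sox17 lines was reached by 0 of the 24 members, against 1.87% of genes higher and 1.42% lower. In line 1 alone, Serpinh1, Plod3, Xbp1 and Dnajc3 were higher by that much (9.03% of genes) and Hsp90b1 and Plod2 lower (9.05%). In line 2, Sel1l and Sec23a were higher (5.92%) and 0 members lower (5.68%), and in KH2 Serpinh1 and Plod1 were higher (9.15%) and Hsp90b1, Pdia3, Dnajc3 and Sec23a lower (12.6%). Of the 5 collagen members, 4 were higher in both Sox17 lines and in KH2 (Serpinh1, Plod1, Plod3 and P4ha2), as were 18.5% of all genes and 1 of the 12 general chaperones (Hyou1).

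**Figure D2:**
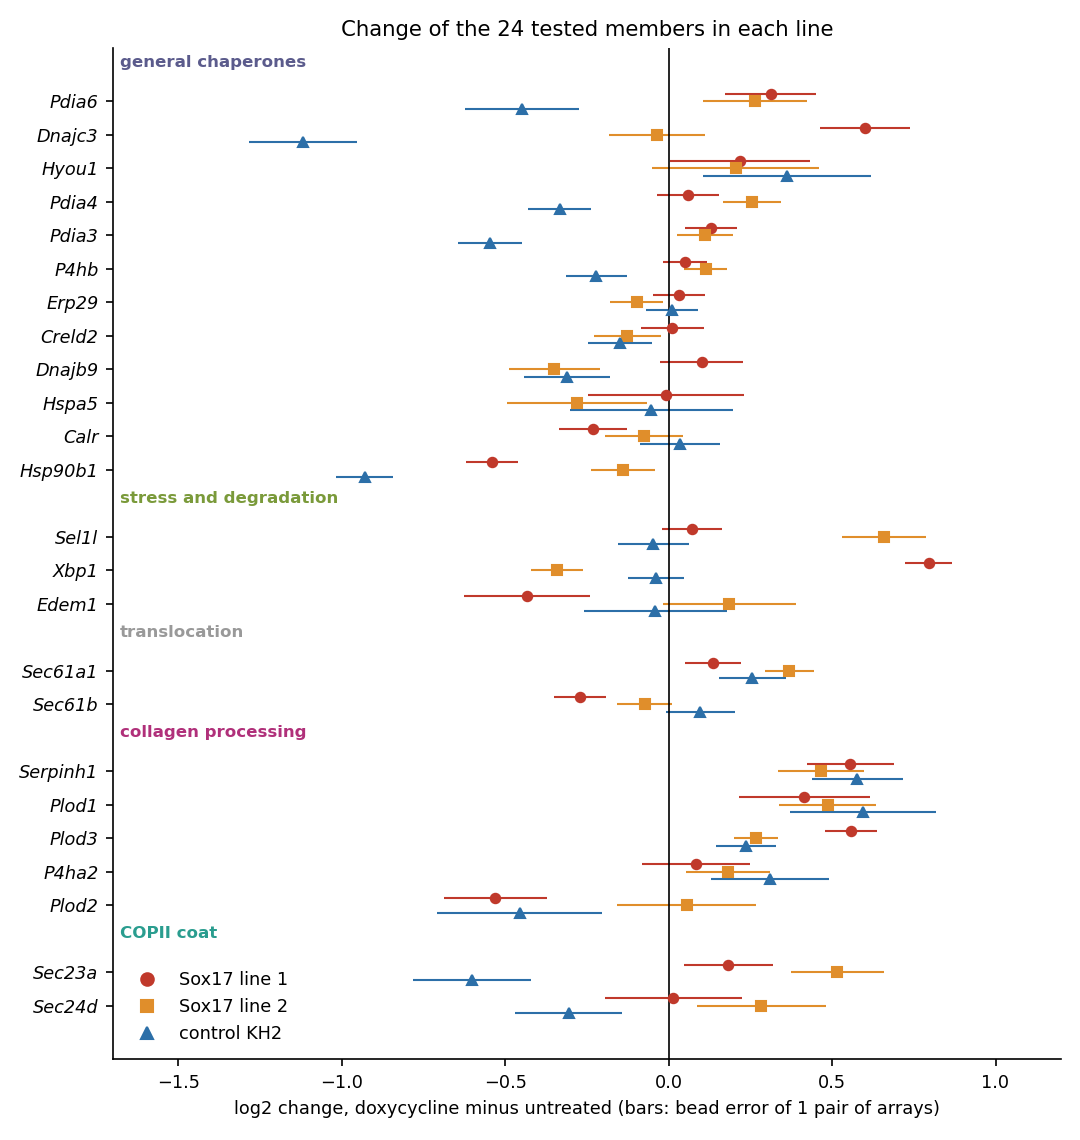
Change of each of the 24 tested members with doxycycline (horizontal axis, log2, doxycycline minus untreated) in line 1, line 2 and KH2, grouped by role and ordered by mean change in the Sox17 lines. Points are single pairs of arrays and bars are bead errors. Serpinh1, Plod1 and Plod3 sit right of 0 in all 3 cell lines, and most general chaperones have their KH2 point left of 0.

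The type IV collagen chain genes Col4a1 and Col4a2 had larger changes in both Sox17 lines than any collagen processing member. Col4a1 read 9.19 and 10.49 in the untreated lines and 10.84 and 11.44 in the induced ones. Its changes were 1.66, 0.95 and 0.07 in line 1, line 2 and KH2, and those of Col4a2 were 1.27, 0.90 and 0.50. In KH2, the Serpinh1 and Plod1 changes of 0.58 and 0.59 stood beside a Col4a1 change of 0.07. Markers of other cell types were read on the same arrays. Of 11 parietal endoderm markers with a probe, 10 were detected on some array, and their summed normalised signal was 4547 and 8871 in the untreated lines, 9700 and 14086 in the induced lines, and 5253 and 6248 in KH2 without and with doxycycline. That list includes Col4a1 and Col4a2, so its sum partly repeats the collagen values above. Of 6 primitive endoderm markers, 5 were detected on some array, Foxa2 on none, and their sum was 540 and 599 in the untreated lines, 833 and 1493 in the induced lines, and 559 and 616 in KH2. Of 9 fibroblast and feeder markers, Col1a2, Col3a1, Postn, Dcn and Lum were below detection on every array. The sum for the 9 was 1137 and 1826 in the untreated lines, 1335 and 2378 in the induced lines, and 1598 and 1778 in KH2. Most of it came from Vim, the brightest of the 9. On the log2 scale Vim read 9.58 and 10.47 in the untreated lines and 9.88 and 10.89 in the induced lines. The sum therefore says little about the other markers of that list. The part of these marker lists in the change of the collagen enzymes was not tested, and fewer cells of a type cannot be told apart from less RNA per cell. All 8 embryonic stem cell markers were detected on all 6 arrays.

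Among the general chaperones, Hsp90b1, the ER member of the Hsp90 family (GRP94), had the largest mean change. It read 11.75 and 11.22 in the untreated lines, 11.21 and 11.08 in the induced lines, and 11.67 and 10.74 in KH2 without and with doxycycline. The array with doxycycline was the lower one in all 3 cell lines, although induced line 1 lay just under untreated line 2. The changes were -0.54 ± 0.08 (bead error), -0.14 ± 0.10 and -0.93 ± 0.09 in line 1, line 2 and KH2. The mean change in the Sox17 lines was -0.34 ± 0.24 (SE, n = 2 against 2, limma adjusted p = 0.955).

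Hspa5 encodes BiP, the ER Hsp70 that binds unfolded chains and is the classic target of the unfolded protein response. Its single probe was dim, at 5.81 and 5.79 in the untreated lines, 5.80 and 5.51 in the induced lines, and 6.07 and 6.02 in KH2. It was not above background on the induced line 2 array, and its changes of -0.01, -0.28 and -0.05 stood beside bead errors of 0.24, 0.21 and 0.25. Hyou1, a co-chaperone of BiP, was also dim, with changes of 0.22, 0.20 and 0.36, each within 2 bead errors.

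Dnajc3 (p58IPK), a J-domain partner of BiP, had the widest range of the 24 members over the 6 arrays. It read 6.80 in untreated line 1 and 7.40 with doxycycline, 7.36 and 7.32 in line 2, and 7.22 and 6.10 in KH2. The KH2_dox array was the lowest of the 6, and both induced arrays lay above it. The Sox17_dox arrays exceeded KH2_dox by 1.26 ± 0.30 (SE, n = 2 against 1, limma adjusted p = 0.395, and 0.0502 with the line as a block). The block value leaves the difference between the Sox17 lines out of the error. The change in the Sox17 lines exceeded that in KH2 by 1.41 ± 0.43 (adjusted p = 0.996). Dnajb9 (ERdj4), another J-domain partner, had changes of 0.10, -0.35 and -0.31 by its detected probe.

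Among the disulfide isomerases, Pdia3 read 12.02 and 11.98 in the untreated lines, 12.15 and 12.09 in the induced lines, and 12.23 and 11.69 in KH2 without and with doxycycline. Pdia6 read 6.70 and 6.47, 7.01 and 6.73, and 6.79 and 6.34 in the same order. In both genes KH2_dox was the lowest array and the induced arrays were above the untreated Sox17 arrays. For Pdia4 the changes were 0.06 and 0.25 in the Sox17 lines against -0.33 in KH2. The changes of Pdia3 in the Sox17 lines (0.13 and 0.11) and of Pdia6 (0.31 and 0.26) were within 2 bead errors, except for Pdia6 in line 1, whereas their KH2 changes (-0.55 and -0.45) were not.

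Calr, a lectin chaperone, differed by line more than by drug. It read 10.05 and 9.82 in line 1 without and with doxycycline, 9.25 and 9.17 in line 2, and 9.10 and 9.14 in KH2. Both line 1 arrays were above all others. Erp29, a disulfide isomerase relative with no known redox activity, and Creld2, a stress-induced ER protein, varied over the 6 arrays by only 0.17 and 0.30. The other Creld2 probe gave -0.12 and 0.11 in the Sox17 lines, where the brighter one gave 0.01 and -0.13.

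Of the 12 general chaperones, 9 read lower in KH2 with doxycycline, against 47.9% of all genes, and 3 of them by at least 0.5 (Hsp90b1, Pdia3 and Dnajc3), against 12.6%. In the Sox17 lines 5 were higher in both and 3 lower in both, where 29.3% and 31.3% of all genes were. The 6 tested general chaperones with an ERSE had medians of 0.00, -0.10 and -0.30 in line 1, line 2 and KH2. The 4 with a promoter but no ERSE (Pdia3, Pdia4, P4hb and Dnajb9) had medians of 0.08, 0.11 and -0.32.

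**Figure D3:**
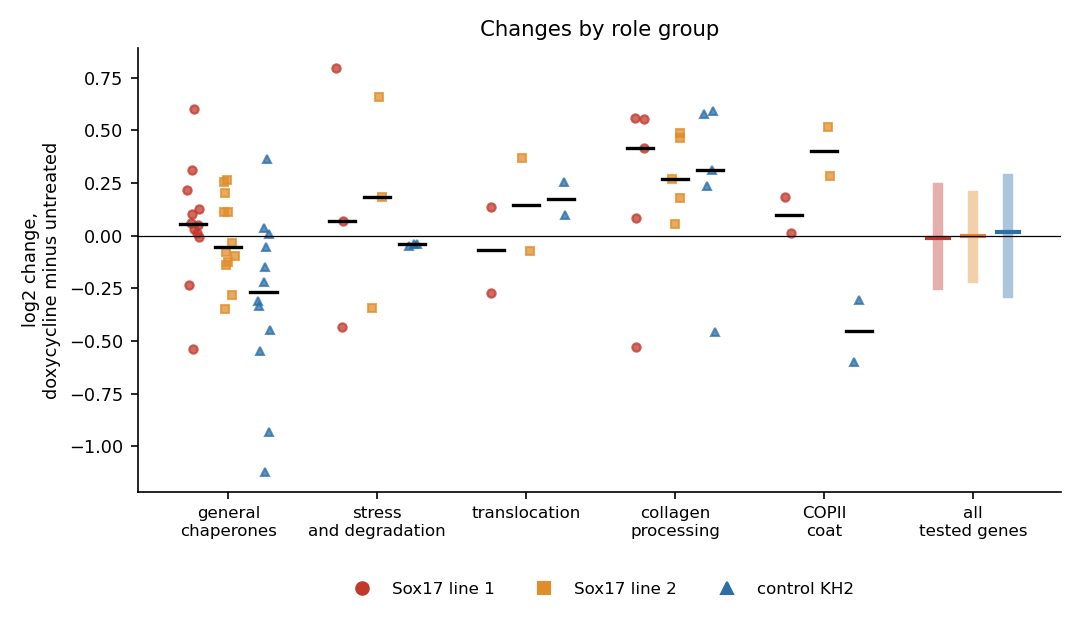
Changes with doxycycline by role group (vertical axis, log2) in line 1, line 2 and KH2. Points are tested members, black bars are medians, and the columns at the right give the quartiles and median of all 8605 tested genes. The collagen processing medians are 0.42, 0.27 and 0.31, and the general chaperone medians are 0.05, -0.06 and -0.27.

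The stress regulator and degradation members differed between the 2 Sox17 lines. Xbp1, the transcription factor that the stress sensor IRE1 switches on by splicing, read 11.58 in untreated line 1 and 12.37 with doxycycline, 12.69 and 12.35 in line 2, and 11.95 and 11.91 in KH2. The untreated Sox17 arrays were the lowest and the highest of the 6, and the induced arrays read nearly alike. The change was 0.80 ± 0.07 (bead error) in line 1 and -0.34 ± 0.08 in line 2. The probe is annotated to the gene only, so spliced and unspliced Xbp1 were not told apart.

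Sel1l, the adaptor of the ER degradation ligase, read 8.98 and 8.94 in the untreated lines, 9.05 and 9.60 in the induced lines, and 9.05 in untreated KH2, with a change of -0.05 on doxycycline. The induced line 2 array stood above the other 5. Its second tested probe gave the opposite picture, 0.96 in line 1 and -0.02 in line 2. That probe was not above background on the untreated line 1 and KH2_dox arrays, so its line 1 value has a level only on 1 side. Edem1, a mannosidase-like factor of the same pathway, had changes of -0.43 and 0.19, over 2 bead errors in line 1 but not in line 2.

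Both COPII coat members were lowest in KH2_dox. Sec23a, the inner coat subunit needed for collagen export, read 7.17 and 6.84 in the untreated lines, 7.36 and 7.35 in the induced lines, and 7.15 and 6.55 in KH2. The Sox17_dox arrays exceeded KH2_dox by 0.80 ± 0.26 (SE, n = 2 against 1, limma adjusted p = 0.425). Sec24d, its cargo-binding partner, had changes of 0.01, 0.28 and -0.31, with bead errors of 0.16 to 0.21. In the translocation group, Sec61a1, the channel subunit, read 9.50 and 9.24 in the untreated lines, 9.64 and 9.61 in the induced lines, and 9.52 and 9.78 in KH2. It was higher with doxycycline in all 3 cell lines, by 0.14, 0.37 and 0.26. Sec61b, a small subunit of the channel, had changes of -0.27, -0.07 and 0.10, and its other probe gave -0.12, -0.30 and 0.49.

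Counted over all roles, 10 of the 24 members had both induced arrays above both untreated Sox17 arrays, where 15.9% of all genes did. These were Pdia3, Pdia6, P4hb, Sel1l, Sec61a1, Serpinh1, Plod1, Plod3, Sec23a and Sec24d. A single member, Hsp90b1, had both below, where 17.6% of genes did. In all, 7 members were higher in both Sox17 lines and lower in KH2 (Pdia3, Pdia4, Pdia6, P4hb, Sel1l, Sec23a and Sec24d), against 10.8% of genes. KH2_dox was the lowest of the 6 arrays for 8 of the 24, against 22.3%.

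**Figure D4:**
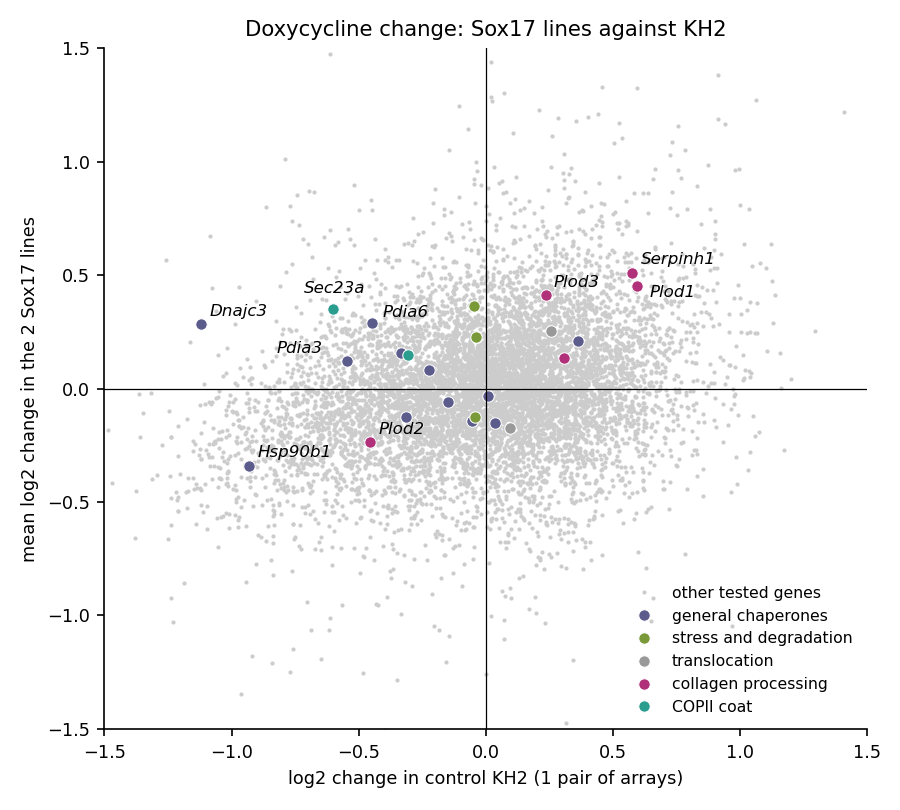
Mean change with doxycycline in the 2 Sox17 lines (vertical axis, log2) against the change in KH2 (horizontal axis, log2, 1 pair of arrays). Grey points are the other tested genes, 14 genes beyond 1.5 are outside the axes, and coloured points are members by role. Serpinh1, Plod1 and Plod3 lie at the upper right, Dnajc3, Sec23a, Pdia3 and Pdia6 at the upper left, and Hsp90b1 and Plod2 at the lower left.

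Against KH2 cells that also had doxycycline, the collagen genes went both ways. The median difference of the 5 genes between Sox17_dox and KH2_dox was 0.05, with Serpinh1 at -0.40 ± 0.30 (SE, n = 2 against 1, limma adjusted p = 0.637), P4ha2 at -0.16, Plod3 at 0.05 and Plod1 at 0.08. Plod2, which KH2_dox did not have above background, was higher by 1.56-fold or more with KH2_dox at its detection limit, bead error left out. The 12 general chaperones had a median of 0.24 and the 2 COPII genes of 0.56. limma called 0 of 24 members and 0% of probes here (smallest adjusted p = 0.293), and 2 members, Dnajc3 and Sec23a, had an unadjusted p under 0.05, against 11.1% of probes. With the line as a block 234 probes passed (1.89%) and 0 members, and 4 members (Dnajc3, Sec23a, Pdia6 and Plod2) had an unadjusted p under 0.05, as did 23.5% of probes. For Plod2 that p rests on a KH2_dox value that is only a bound. The block takes the difference between the Sox17 lines out of the error, although KH2 is a further line. Block p-values in this comparison are therefore likely too small.

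The last comparison took the change of KH2 off that of the Sox17 lines. The median over the collagen group was -0.07, with Serpinh1 at -0.07 ± 0.43, Plod1 at -0.14 ± 0.34 and Plod3 at 0.18 ± 0.41 (SE, n = 2 lines against 1, without pairing). These errors include the difference between the Sox17 lines, and they leave room for a difference of either sign. The general chaperones had a median of 0.25 and the COPII genes of 0.70. Again limma called 0 of 24 members and 0% of probes (smallest adjusted p = 0.996), with Dnajc3 and Sec23a at an unadjusted p under 0.05, where 2.78% of probes were. With the line as a block, 4 members had an unadjusted p under 0.05 (Pdia3, Pdia6, Dnajc3 and Sec23a), against 10.2% of probes, and 0 passed. Before induction, Sox17_untreated differed from KH2_untreated in 0 of 24 members and 0% of probes at a limma adjusted p under 0.05 (smallest 0.0888). At an unadjusted p under 0.05 it was 0 members and 2.81% of probes, and with the line as a block 1 probe passed (0.00808%), of no member. The widest gap before induction was that of Calr, at 0.55 ± 0.43 (SE, n = 2 against 1). It was the 1 member with an unadjusted p under 0.05 with the block, where 9.15% of probes had one. That p leaves out the difference between the Sox17 lines. Untreated Calr read 10.05 in line 1, 9.25 in line 2 and 9.10 in KH2, so the gap came mostly from line 1.

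Other genes of the same pathways were read from fixed lists. For the counts in this and the next paragraph, the shares over all genes were 29.3% higher and 31.3% lower in both Sox17 lines. Those higher in KH2 too were 18.5%. Of 24 tested genes of other ER folding and stress factors (31 had a probe), 15 were higher in both Sox17 lines and 4 lower in both, with a median mean change of 0.17 against -0.01 over all genes. The largest were Creb3l2, an ER-bound transcription factor that drives Sec23a in mouse cartilage, at 0.65 and 0.66 with -0.01 in KH2, Herpud1, a degradation factor, at 1.24 and -0.01, and Os9, a lectin of the degradation pathway, at 0.62 and 0.50. Of 22 tested translocation and COPII genes, 7 were higher and 5 lower in both lines (median 0.03). Sec16a, which marks the sites where COPII coats form, was at 0.63 and 0.51 against -0.40 in KH2. Surf4, a cargo receptor, was at 0.43 and 0.23, and Ssr3, a subunit next to the channel, at -0.51 and 0.01.

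Of 17 tested further collagen genes, 11 were higher in both lines and 3 lower (median 0.20). The crosslinking enzyme gene Lox was at 1.25 and 0.39 with -0.21 in KH2. Sparc, a collagen-binding matrix protein, was at 0.78 and 0.56 with 0.44, and Fkbp11, an ER prolyl isomerase, at -0.46 and -0.52 with -0.02. Of the 10 genes of the ATF4 and CHOP branch of the stress response, 7 were higher in both lines and 6 of these in KH2 too, with medians of 1.19, 0.37 and 0.13 in line 1, line 2 and KH2. Ddit3 (CHOP) was at 2.29 and 0.98 with 0.48 in KH2, and Trib3 at 1.77 and 0.40 with 0.73. Atf3 was at 1.74 and 0.65 with 0.40, and was not above background on the untreated line 1 array. Of 11 tested hypoxia targets, 2 were higher and 3 lower in both lines (median -0.08). Aldoc was at -1.13 and -0.53, Egln3 at -1.38 and 0.06, and Vegfa at 0.97 and 0.19. None of the genes in these lists passed limma's test between Sox17_dox and Sox17_untreated, with or without the line as a block.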

How the data were processed

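The members and gene lists were chosen with earlier results of these data known. Per the file headers, each probe has a deposited mean intensity over its beads, with the bead standard error, bead number and detection p-value. The authors also deposited normalised intensity values, made with BeadStudio per the submitters' processing notes, by a method not given in the sources used here. These served as an alternative.

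neqc (limma 3.58.1, R 4.3.3) made log2 values from the raw table by normexp, with negative-control background deduced from detection p-values, an offset of 16 and quantile normalisation. The test took 12373 of 25697 probes, those detected (p under 0.05) on 2 or more arrays. Each gene was represented by the brightest of them. Symbols are those of the platform annotation, and 1719 probes had none. On each array 43.7% to 46.5% of probes were detected, and the number of arrays limits the precision. Contrasts were fitted with a mean for each of 4 groups (lmFit and eBayes, two-sided, Benjamini-Hochberg, threshold 0.05), which assumes that the single KH2 arrays vary like the Sox17 lines. The p-values measure only the spread between these arrays. The fit was tested on simulated data.

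Arrays of a line were paired because the labels name the line, with the line without a number taken as line 1. As a check, the differences between the lines with and without doxycycline correlated at r = 0.509 across probes. For induced line 1, the correlation was 0.986 to untreated line 2 and 0.983 to its untreated partner. Values on every array are printed for members with a change of at least 0.5 in 1 line and the opposite sign in the other, the largest of each role group, and Hspa5, Hsp90b1, Xbp1 and Serpinh1. Those of Plod1, Plod3, Pdia3, Pdia6 and Calr were added after their values were seen, and up to 3 genes are named per further list. Alternatives were the background correction, the authors' values, the filter, the moderation, the line as a block, the probe choice, the place of P4hb and leaving out each array.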

Additional observations from a re-analysis of the deposited data

Results flagged for a closer look

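In 3 members the Sox17 lines both moved one way with doxycycline and KH2 the other, with a gap of at least 0.5. The change in the Sox17 lines exceeded that in KH2 by 0.67 for Pdia3 (0.13 and 0.11 against -0.55), by 0.74 for Pdia6 (0.31 and 0.26 against -0.45) and by 0.95 for Sec23a (0.18 and 0.52 against -0.60). limma's test of each difference gave an adjusted p of 0.996, and the KH2 change rests on 1 pair of arrays. KH2_dox also had the fewest probes detected of the 6 arrays (11219), and the part of that array in these differences was not tested.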

How the results depend on the processing

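The number of arrays limits every value, and dim probes such as those of Hspa5, Hyou1 and Plod2 limit what their changes can show. The collagen median in the Sox17 lines (0.41) was 0.30 without background correction, 0.27 with no filter on dim probes, 0.27 with P4hb counted in the collagen group, and 0.17 to 0.51 when an array was left out, lowest without untreated line 1. The chaperone median (0.02) was 0.0095 to 0.126 when an array was left out, highest without induced line 2, and turned to -0.03 with no filter and with P4hb moved. Their difference (0.39) was 0.29 with normexp and an offset of 50, 0.27 without background correction, 0.31 with no filter, 0.35 with detection on all 6 arrays, 0.31 with P4hb moved, and 0.10 to 0.50 when an array was left out, so that it shrank to 0.10 without untreated line 1 and to 0.19 without induced line 2. The line as a replicate block raised the probes called from 0, with no member among them. They were 1 between Sox17_dox and Sox17_untreated, 234 between Sox17_dox and KH2_dox, and 1 between Sox17_untreated and KH2_untreated. The block leaves the difference between the Sox17 lines out of the error, so its calls against KH2 are likely too many. Leaving out an array gave 0 calls, and so did trend and robust moderation.

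Over 24 members and 12 alternatives, 270 of 286 values kept their sign, and 0 became called where every array was kept. Many of these signs could not turn. The change between Sox17_dox and Sox17_untreated repeated its main value without either KH2 array and with the line as a block. It also did so with no filter on dim probes and with detection on every array. The other 16 values turned, all when a Sox17 array was left out. The ranges were -0.56 to 0.25 for Calr, -0.207 to 0.0917 for Creld2, -0.277 to 0.0278 for Dnajb9, -0.293 to 0.0452 for Edem1, -0.116 to 0.0504 for Erp29, -0.289 to 0.00108 for Hspa5, -0.00405 to 0.426 for Hyou1, -0.12 to 0.39 for P4ha2, -0.0724 to 0.385 for Pdia4, -0.59 to 0.12 for Plod2, -0.359 to 0.0142 for Sec61b and -0.33 to 0.78 for Xbp1. Serpinh1 stayed at 0.29 to 0.73, Plod1 at 0.38 to 0.52 and Plod3 at 0.17 to 0.65. Each Sox17 array was left out without its partner, so a difference between the lines entered these changes and the medians above. Its share in the shifts was not tested.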
